A study of Mus musculus with 4 samples.

Results

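Chromatin accessibility was examined at 10 genes of the fibroblast growth factor (FGF) pathway in mouse salivary gland organoids. The genes were listed by name and role, with earlier results of these data known. They were the receptors Fgfr1, Fgfr2 and Fgfr3, the feedback inhibitors Spry1, Spry2 and Dusp6, the ETS transcription factors Etv4 and Etv5, and the mesenchymal ligands Fgf7 and Fgf10. All 10 were found among the 19666 protein-coding genes that could be placed with a strand on the GRCm38.p6 gene table of RefSeq, and all coordinates below are on that build. The study grew organoids from submandibular salivary glands of C57BL/6 mice in Matrigel and profiled them by ATAC-seq, in which the Tn5 transposase cuts and tags DNA that is not packed by nucleosomes. There were 4 samples, all non-irradiated, at passage 1 or passage 2, from mice whose ages the labels give as 12 weeks or 3 months, with 2 samples at each passage and each age. All samples shared a medium with EGF, FGF2, insulin, dexamethasone, the ROCK inhibitor Y27632, and media conditioned by cells that secrete R-spondin1 and Wnt3a, so that an FGF ligand was supplied to every culture. The data are a single list of open regions, taken here as the consensus of all samples although it holds fewer distinct regions than the study's methods give for that consensus. No sample, passage or age therefore has a value of its own, the depth per sample is unknown, and every value below is a description without a replicate error or a test.

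FGF ligands bind receptor tyrosine kinases at the cell surface, and the receptors signal through docking proteins and RAS to the ERK kinases. ERK activity raises transcription of ETS factors of the Etv4 and Etv5 family and of the inhibitors Sprouty and Dusp6, which damp the same cascade. In the developing salivary gland, mesenchymal Fgf10 and Fgf7 act on the Fgfr2b receptor of the epithelium and drive bud outgrowth and branching.

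The list held 32011 distinct open regions, each with at least 1 summit, the position of strongest signal. A region was taken as lying at a 5′ end when its midpoint was within 1 kb of the outermost 5′ end of a gene. Among the 10 genes, 6 had such a region, namely Fgfr1, Spry1, Spry2, Dusp6, Etv4 and Etv5, while 40.7% of all protein-coding genes did. By role, 1 of the 3 receptors, all 5 feedback inhibitor and ETS factor genes, and 0 of the 2 ligand genes had an open 5′ end. Regions farther than 1 kb from every protein-coding 5′ end are called distal here, and each was counted for the gene whose 5′ end was closest. Distal regions were given to 7 of the 10 genes, beside 43.5% of all genes, and the 43 distal regions of the 10 genes were spread unevenly, with 12 each for Fgfr2 and Spry2 and 10 for Dusp6. Regions inside the gene and more than 1 kb from its 5′ end were found in 4 of the 10 genes (Fgfr1, Fgfr2, Etv5 and Fgf7), beside 27.3% of all genes. Fgfr3 and Fgf10 had neither a region at the 5′ end nor a distal one, as was the case for 35.3% of all genes, and held none inside either. Distal counts rest on the choice of protein-coding 5′ ends: when 5′ ends of genes of any type could claim a region, the 10 genes had 10 distal regions in place of 43.

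**Figure D1:**
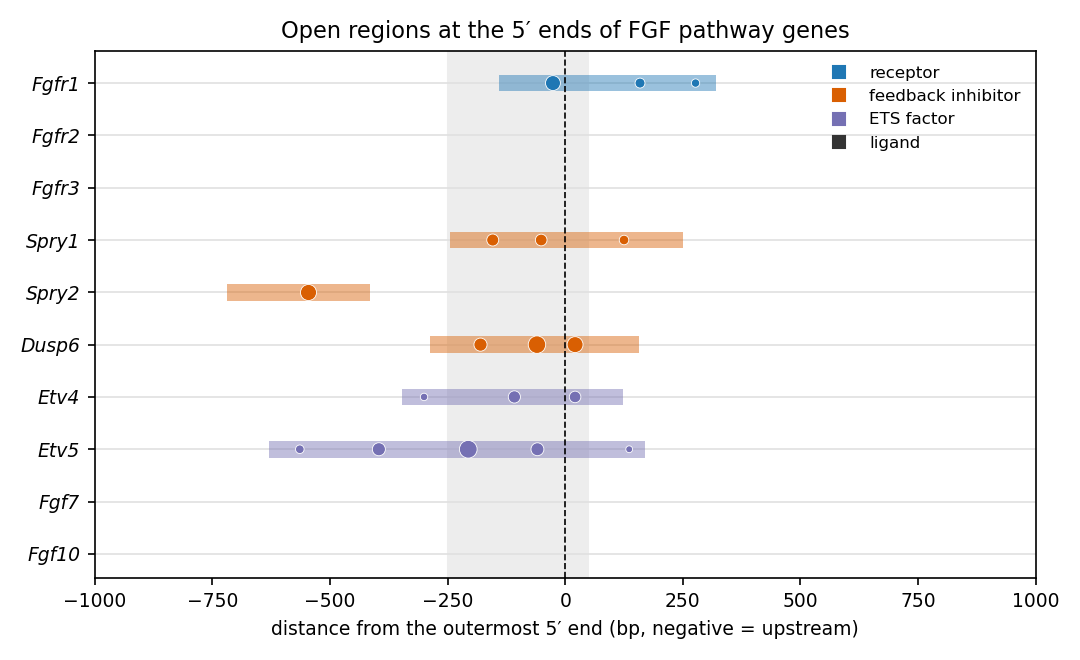
Open regions within 1 kb of the outermost 5′ ends of the 10 genes (x axis, bp from the 5′ end, negative upstream; bars are regions, points their summits with area proportional to fold over background, grey shading the span of a RefSeq promoter window, 300 bases). The regions of 5 genes span the promoter window in whole or in part, the Spry2 region lies wholly upstream of it, and Fgfr2, Fgfr3, Fgf7 and Fgf10 have none.

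The labels call the samples organoid-derived salivary gland cells, and marker genes were examined against this label. Of 8 epithelial markers, 6 had an open 5′ end, with 7.77-fold signal over the local background at the adhesion gene Cdh1, 6.64-fold at Epcam and 5.43-fold at the basal keratin gene Krt14 but only 2.95-fold at its partner Krt5, whereas the keratin genes Krt18 and Krt7 had none. None of 8 mesenchymal markers (Pdgfra, Pdgfrb, Col1a1, Col1a2, Col3a1, Dcn, Lum and Thy1) had an open 5′ end, and none of 4 endothelial markers did. Of 4 immune markers, only the macrophage gene Cd68 had one, at 4.58-fold. Distal regions were given to 4 of the 8 mesenchymal genes, near the share of 43.5% of all protein-coding genes. They were 10 in all, 6 of them nearest to the proteoglycan gene Dcn. All 4 endothelial markers had distal regions, beside the same 43.5%. They were 13 in all, with 7 for Cdh5, 3 for Pecam1, 2 for Tek and 1 for Kdr. In bulk samples of this kind, fewer cells of a type and less open chromatin per cell cannot be told apart.

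The sequences before the start sites are shown for 6 genes. The outermost start sites of Dusp6, Etv5 and Spry1 lay in a region, and those of Spry2, Fgfr2 and Fgf10 did not. The sequences of Fgf7 and Fgfr3, whose start sites also lay outside any region, are not shown. RefSeq holds promoter windows of 300 bases, from 250 bases before to 50 bases after a start site, for 8 of the 10 genes, in 10 windows on GRCm38.p6. Fgfr1 and Etv4 were not matched. Below, the 250 bases before the outermost start site are written 5′ to 3′ on the strand of the gene. Capitals mark the letters of the ETS core CGGAAG and of the CCAAT box on either strand, so that CTTCCG and ATTGG are the same motifs read on the other strand.
Dusp6, chr10:99262981-99263230, plus strand: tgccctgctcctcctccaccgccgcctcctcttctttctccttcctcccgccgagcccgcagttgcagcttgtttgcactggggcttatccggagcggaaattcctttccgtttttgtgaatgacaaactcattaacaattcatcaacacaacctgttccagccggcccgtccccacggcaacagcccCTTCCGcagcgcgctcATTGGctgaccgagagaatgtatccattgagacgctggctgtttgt
Etv5, chr16:22439571-22439820, minus strand: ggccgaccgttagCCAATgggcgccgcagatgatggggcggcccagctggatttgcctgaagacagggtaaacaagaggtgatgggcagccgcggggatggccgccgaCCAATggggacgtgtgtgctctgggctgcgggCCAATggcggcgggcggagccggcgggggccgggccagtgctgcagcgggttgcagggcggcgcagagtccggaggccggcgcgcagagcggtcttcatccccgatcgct
Spry1, chr3:37639697-37639946, plus strand: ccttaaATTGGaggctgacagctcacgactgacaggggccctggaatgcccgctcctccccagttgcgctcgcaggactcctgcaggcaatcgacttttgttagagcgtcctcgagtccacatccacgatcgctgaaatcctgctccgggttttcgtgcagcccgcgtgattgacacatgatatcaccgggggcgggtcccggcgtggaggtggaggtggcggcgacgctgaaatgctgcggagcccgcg
Spry2, chr14:105896820-105897069, minus strand: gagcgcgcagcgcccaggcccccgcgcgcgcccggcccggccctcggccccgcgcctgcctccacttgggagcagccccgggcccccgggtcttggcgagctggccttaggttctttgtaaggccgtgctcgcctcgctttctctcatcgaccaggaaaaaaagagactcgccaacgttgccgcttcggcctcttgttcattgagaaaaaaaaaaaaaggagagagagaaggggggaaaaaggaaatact
Fgfr2, chr7:130266809-130267058, minus strand: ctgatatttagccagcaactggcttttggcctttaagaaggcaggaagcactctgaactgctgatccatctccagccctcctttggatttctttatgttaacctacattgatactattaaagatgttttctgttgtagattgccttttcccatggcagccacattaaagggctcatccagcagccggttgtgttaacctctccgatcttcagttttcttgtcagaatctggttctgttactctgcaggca
Fgf10, chr13:118714449-118714698, plus strand: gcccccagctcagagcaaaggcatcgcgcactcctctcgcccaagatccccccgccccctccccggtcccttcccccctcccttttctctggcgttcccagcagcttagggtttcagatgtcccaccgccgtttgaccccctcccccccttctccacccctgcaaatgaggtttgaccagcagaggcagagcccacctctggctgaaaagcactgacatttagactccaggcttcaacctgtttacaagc

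Open regions covered 300 of the 300 bases of the windows of Dusp6 and Etv5 and 295 of those of Spry1. No base of the other 7 windows was covered, although Spry2 had a region that began farther upstream, and although Etv5 has a start site 1202 bp into the gene that was among them. Across all protein-coding promoter windows, 39.3% were overlapped by a region. The ratio of observed to expected CpG dinucleotides, which is high in CpG islands, was 0.938 for Etv5, 0.935 for Spry1, 0.802 for Dusp6 and 0.951 for Spry2. Over all promoters the median ratio was 0.611, with 0.806 in open and 0.358 in other windows. The lowest ratios among the genes were 0.282 for Fgfr2 and 0.394 for Fgf10. Fgf7 at 0.720 and the outermost start site of Fgfr3 at 0.726 were above the median of all promoters and yet had no region.

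Of the motifs searched on both strands of the windows, the ETS core CGGAAG, which is bound by Etv4, Etv5 and other ETS proteins, was matched only at Dusp6. It lay at −62 to −57 bp, and the strongest summit of the region there was at −60 bp. The same 6 letters were found in 22.4% of all promoters and in 38.2% of the open ones. The Etv5 promoter held 3 matches of the CCAAT box, known as the site of NF-Y, and 3 of the GC box GGGCGG, known as the site of Sp and Klf proteins, while Spry1 and Dusp6 each held 1 CCAAT box and Spry1 also 1 GC box. Windows without a region held them too: the outermost start site of Fgfr3 had 4 GC boxes and 1 CCAAT box and its other start site 2 GC boxes, Fgf10 had 1 GC box, and Fgf7 and the inner start site of Etv5 had 1 CCAAT box each. The CCAAT box was found in 37.8% of all promoters and in 43.9% of the open ones, and the GC box in 49.5% and 70.3%. Neither the AP-1 motif TGANTCA nor the TATA box TATAAA was matched in any of the 10 windows, and these were found in 6.67% and 10.9% of all promoters. No motif overlapped another of a different kind in these windows, and the windows of Spry2 and Fgfr2 held none of the 5 motifs.

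Among the receptors, only Fgfr1, which binds FGF2 and is broadly expressed in mesenchyme, was open at its 5′ end. The gene lies on chr8:25518759-25575718 on the plus strand. Its region at chr8:25518619-25519080 was 462 bp wide with 3 summits, and the strongest, at −26 bp, had 8.52-fold signal over the local background and the highest IDR score of 1000. The IDR score measures how reproducibly a region ranks between data sets, and in this list it ran from 540 to 1000. Over the 8033 regions at protein-coding 5′ ends, the median was 7.90-fold with an interquartile range of 6.05 to 10.5, which puts the Fgfr1 region at percentile 57.5. Inside Fgfr1 there were 2 further regions, of 6.04-fold at 8.93 kb and of 10.5-fold at 18.7 kb (chr8:25537163-25537713). The single region outside the gene, at −53.0 kb, had 8.71-fold signal. When 5′ ends of genes of any type could claim a region, these 3 distal regions fell to 1. Within 100 kb of its 5′ end Fgfr1 had 12 regions in all, those of neighbouring genes included, beside a median of 4 over all genes. By the same count Fgfr2 and Fgfr3 had 6 each, Spry1 and Dusp6 5 each and Spry2 4. Etv4, Etv5 and Fgf7 had 3 each, and Fgf10 had 0.

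Fgfr2 encodes the receptor whose epithelial splice form binds Fgf7 and Fgf10. The gene spans chr7:130162451-130266808 on the minus strand, and no region lay within 1 kb of its 5′ end. The closest one was 22.1 kb upstream at chr7:130288659-130289073 and was weak at 4.64-fold; 34.2% of protein-coding genes had their nearest region farther away. Fgfr2 instead had 12 distal regions, 4 upstream, 2 inside and 6 beyond its 3′ end. This count was at percentile 96.4 among genes with about as much chromosome closest to their 5′ end, which was 464 kb for Fgfr2, and it fell from 12 to 2 when 5′ ends of genes of any type could claim a region. The strongest region, at chr7:130032046-130032557, had 14.7-fold signal and lay 234.5 kb from the 5′ end and 130.1 kb beyond the 3′ end. Its fold was at percentile 97.3 of the 23978 regions away from 5′ ends. Of the other 5 regions beyond the 3′ end, 3 were next to it, with gaps of 4.54, 2.64 and 12.1 kb between neighbours, and had 3.07-fold to 5.88-fold signal. The regions inside the gene had 9.51-fold signal at 50.8 kb (chr7:130215818-130216199) and 4.22-fold at 53.4 kb.

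Fgfr3 encodes a receptor known for its control of cartilage growth and also made in epithelia. It had no region at its 5′ end, inside its 15.3 kb, or nearest to it. The nearest region of the list, 60.9 kb away, was at the promoter of the neighbouring gene Letm1 and had 12.9-fold signal. The 3 receptors thus differed in kind, with an open promoter at Fgfr1, distal regions without an open promoter at Fgfr2, and neither at Fgfr3.

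The 3 feedback inhibitors were all open at the 5′ end, with signal that ranged from 5.52-fold at Spry1 to 11.7-fold at Dusp6. Dusp6 encodes a phosphatase that removes the activating phosphates of ERK. Its region, chr10:99262944-99263387, was 444 bp wide with summits at −180, −60 and 21 bp and with 6.60-fold, 11.7-fold and 9.73-fold signal. The region was at percentile 82.7 by fold of all regions at 5′ ends and at percentile 93.0 by q-value, with a −log10 q of 100.1 at its strongest summit. Dusp6 had 10 distal regions, 2 upstream and 8 beyond its 3′ end, and the gene itself is only 4.26 kb long. The strongest of these had 18.4-fold signal at 133.5 kb (chr10:99396389-99397118), at percentile 99.5 of all regions away from 5′ ends and above the promoter of the gene itself. Regions of 14.8-fold at −25.9 kb (chr10:99237048-99237699) and of 14.4-fold at 45.8 kb (chr10:99308817-99309285) were also stronger than the promoter. The other 7 distal regions of Dusp6 had between 4.60-fold and 8.76-fold signal.

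Spry1 and Spry2 encode Sprouty proteins, which dampen receptor tyrosine kinase signalling upstream of ERK. At Spry1 the region chr3:37639702-37640198 was 497 bp wide and was centred on the 5′ end, with 3 summits. It was weak for its position, at 5.52-fold, percentile 16.9 of regions at 5′ ends, and had an IDR score of 606. A distal region 14.1 kb downstream (chr3:37653839-37654306) had 10.9-fold signal, and another at 27.9 kb had 7.08-fold. At Spry2 the region chr14:105897233-105897537 was narrow, 305 bp with 1 summit, and reached from −718 to −414 bp, so that the start site itself was outside it. Its fold of 9.88 was at percentile 70.2. All 12 distal regions of Spry2 lay downstream of its 5′ end and beyond its 3′ end, from 5.82 kb to 308 kb, and none lay upstream. The strongest, at the far end, had 12.9-fold signal (chr14:105588412-105589107), the closest had 9.91-fold (chr14:105890710-105891282), and that at 233.8 kb had 11.9-fold. By count of distal regions, Spry2 was at percentile 96.4, Dusp6 at 91.3 and Spry1 at 60.5 in the same comparison by length. When 5′ ends of genes of any type could claim a region, the count of Spry2 fell from 12 to 1 and that of Dusp6 from 10 to 0, while Spry1 stayed at 2.

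**Figure D2:**
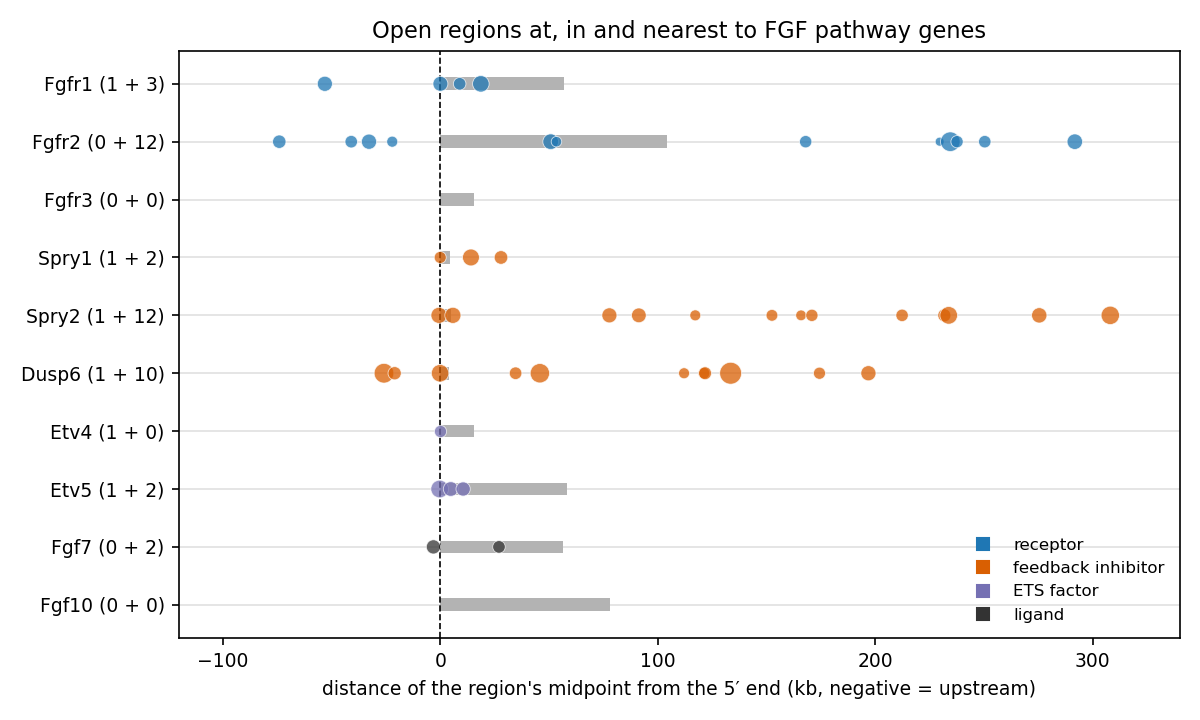
Midpoints of all regions given to the 10 genes (x axis, kb from the 5′ end, negative upstream; grey bars show the gene, point area is proportional to fold over background; in parentheses, regions at the 5′ end plus distal regions). Fgfr2, Spry2 and Dusp6 hold 34 of the 43 distal regions, mostly downstream, and Fgfr3 and Fgf10 hold none.

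The ETS factor genes Etv4 and Etv5, whose transcription is a standard readout of FGF signalling, both had an open 5′ end but differed in strength. The Etv5 region, chr16:22439401-22440199, was 799 bp wide, at percentile 93.3 of widths at 5′ ends, and had 5 summits. The strongest of them, at −206 bp, had 12.0-fold signal (percentile 84.1), and the 2 on either side, at −396 and −59 bp, had 6.54-fold and 6.40-fold. Both distal regions of Etv5 lay inside the gene, with 8.47-fold signal at 4.84 kb (chr16:22434568-22434885) and 7.87-fold at 10.5 kb. The Etv4 region, chr11:101785187-101785656, was 470 bp wide with 5.73-fold signal at −108 bp (percentile 20.1) and an IDR score of 995. No other region was inside or nearest to Etv4. By fold at the 5′ end, the 6 genes ran from Etv5 and Dusp6 through Spry2 and Fgfr1 to Etv4 and Spry1, and since no region has a replicate value here, the spread behind this order is unknown.

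**Figure D3:**
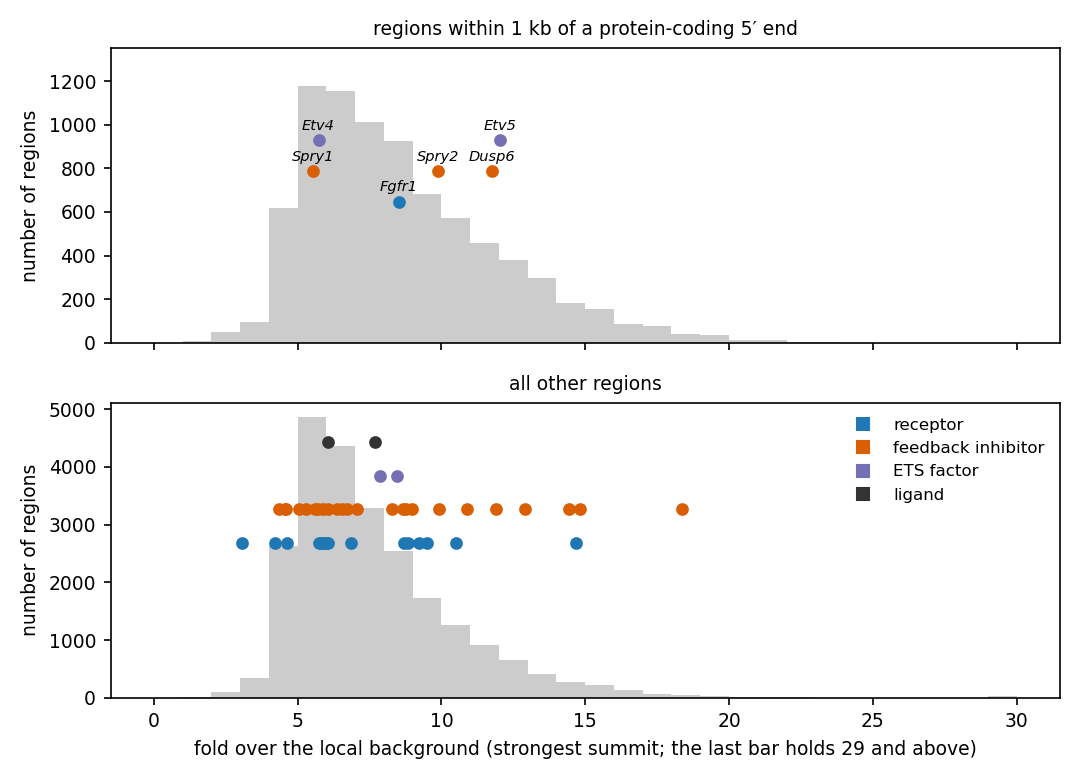
Fold over the local background of the strongest summit of each region (x axis) against the number of regions (y axis, grey bars, all regions at 5′ ends above and all other regions below); coloured points are regions of the 10 genes by role and their height is only for display. At 5′ ends, Etv4 and Spry1 are below the median of 7.90 and the other 4 genes above it.

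The distal regions of these genes were of ordinary strength as a set. Of the 43, 21 were above the median of 6.87-fold of all regions away from 5′ ends. The 5 strongest were 3 of Dusp6, 1 beyond Fgfr2 and 1 at the far end of the stretch nearest to Spry2. The last of these was the weakest of the 5, at percentile 94.4 of all regions away from 5′ ends. At the low end, the weakest was a region 187 bp wide beyond Fgfr2, with 3.07-fold signal and an IDR score of 593.

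Neither ligand gene had an open 5′ end. Fgf10, the mesenchymal ligand required for budding of the gland, spans 77.9 kb from chr13:118714699 on the plus strand. It had no region inside it, none nearest to it and none within 100 kb, although 511 kb of chromosome was nearest to its 5′ end. The nearest region of the list was 328 kb away, at the promoter of Mrps30, with 12.3-fold signal, and 6.02% of protein-coding genes had their nearest region farther away. Fgf7, or keratinocyte growth factor, spans 56.5 kb from chr2:126034658 on the plus strand. It had 2 distal regions. The closer, at −3.13 kb (chr2:126031180-126031871), had 7.68-fold signal and an IDR score of 996 and lay inside Fam227b, a gene that overlaps Fgf7, so that it cannot be attributed to either gene by position. The other lay inside Fgf7 at 27.0 kb (chr2:126061547-126061795), with 6.05-fold signal and an IDR score of 597. With 2 distal regions Fgf7 was at percentile 67.5 and Fgf10 with 0 was at percentile 15.8 in the comparison by length.

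Set side by side, the 8 receptor, feedback and ETS factor genes were given 47 regions and the 2 ligand genes 2. Per length of nearest chromosome, the 8 genes had 2.27 distal regions per 100 kb and the 2 ligand genes 0.304, beside 0.901 over all protein-coding genes. These pooled rates hide differences between genes. Fgf7 alone had 1.37, above all genes, and Fgf10 had 0. Of the 8 genes, Etv4 and Fgfr3 had 0, Etv5 1.02 and Spry1 1.32, and the others had 2.59 to 3.07. When 5′ ends of genes of any type could claim a region, the 8 genes had 14 regions in place of 47 and the ligand genes still 2. Of these, 8 and 2 were distal, or 1 distal region per gene on both sides, so that the contrast in distal counts per gene was absent under that choice; the rates per 100 kb were not recomputed for it. Per length of gene, the 8 genes held 3.03 regions per 100 kb, the ligand genes 0.744, and all genes 1.60. These rates count every midpoint between the ends of a gene, so a region at the 5′ end enters when its midpoint lies inside. Of the 8 regions so counted in the 8 genes, 6 were more than 1 kb from the 5′ end. Fgf7 alone held 1.77 and Fgf10 0. Of the 8 genes, Fgfr3, Spry2, Dusp6 and Etv4 held 0, and the others ran from 1.92 at Fgfr2 to 21.5 at Spry1. The Spry1 value came from its promoter region alone, whose midpoint lay 3 bp inside a gene of 4.65 kb. At Spry2, Dusp6 and Etv4 the midpoint of the promoter region lay upstream of the gene and was not counted. The difference came from some of the 8 genes and not all of them, since Etv4 had only its promoter region and Fgfr3, like Fgf10, had none. On the ligand side, the low pooled rates came from Fgf10 alone, since Fgf7 was above all genes in both. The absence of open 5′ ends at Fgf7 and Fgf10 was shared with all 8 mesenchymal markers, but also with Fgfr2 and Fgfr3, so that an unopened 5′ end was found on both sides of the contrast.

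The rest of the pathway was counted from lists of named genes. Of 22 FGF ligand genes, 1 had an open 5′ end. This was Fgf21, an endocrine ligand, with a 5.56-fold region at 0.927 kb, near the limit of 1 kb. Fgf1, Fgf18 and Fgf9 fell just past that limit, with their nearest regions at 1.09, 1.16 and 1.51 kb, so that the count for the ligands depends on where the limit is set. Distal regions, 19 in all, were counted for 9 of the 22 genes, beside 43.5% of all protein-coding genes. Among them were 6 for Fgf1 and 4 for Fgf9. Fgf2, the ligand that was added to the medium, had no region at its 5′ end and none nearest to it, and its nearest region was 34.9 kb away. Of 9 receptors and co-receptors, 4 were open, namely Fgfr1, the decoy receptor gene Fgfrl1 at 9.24-fold, and the heparan sulphate proteoglycan genes Sdc1 at 5.40-fold and Sdc4 at 6.13-fold. Fgfr4 had no region at its 5′ end, and neither did the Klotho co-receptor genes Kl and Klb.

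Of 17 adaptor and ERK cascade genes, 15 had an open 5′ end. They included the docking protein genes Frs2 at 5.83-fold and Gab1 at 7.07-fold and the kinase gene Map2k1 at 10.7-fold. The exceptions were Braf and Mapk3. Gab1 held 11 regions inside it and stood at percentile 99.6 for distal regions. Of 13 genes listed as feedback inhibitors and placed with a strand, 12 had an open 5′ end. The highest fold, 14.5, was at Flrt3, which encodes an FGF-induced membrane protein known to promote FGF signalling and not to inhibit it, and the next, 11.7, was at Dusp6. Without the 3 members described above, this was 9 of 10. Spry4 was the exception, with its nearest region at 3.73 kb. Flrt3 had 19 distal regions, the Ras inhibitor gene Spred2 had 14 and Dusp7 had 9. Of 10 target genes, 8 were open, 6 of 8 without Etv4 and Etv5. Myc and the cyclin gene Ccnd1 were the exceptions, and Myc had 31 distal regions, while Sox9, which is a marker of salivary progenitor cells, had an open 5′ end of 7.82-fold and 23 distal regions. All these shares of open 5′ ends stand beside the same 40.7% of all protein-coding genes. Since the lists were made of well-known pathway genes, the shares were not tested against it.

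**Figure D4:**
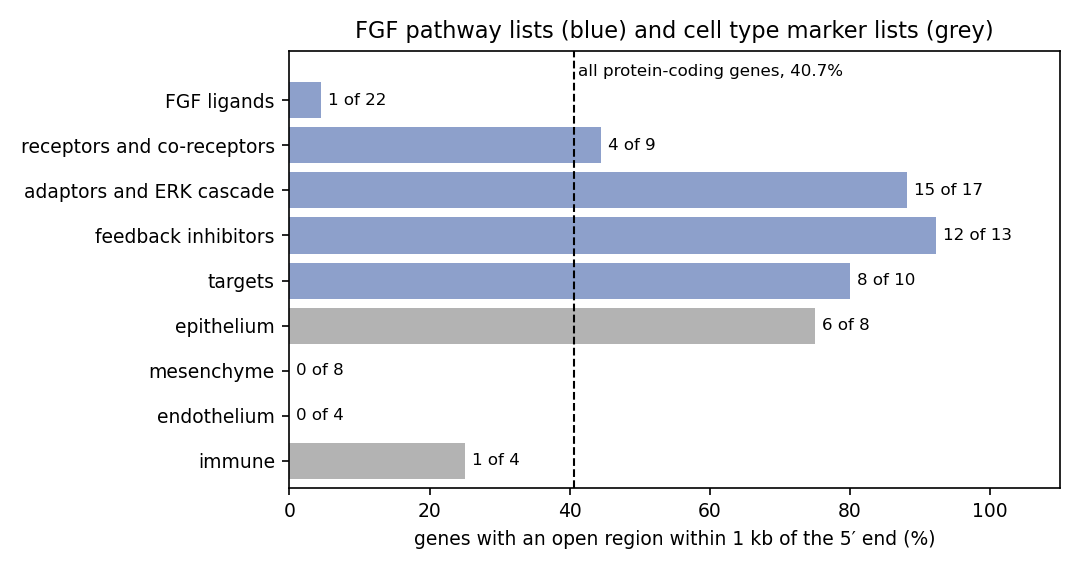
Share of genes with an open region within 1 kb of the 5′ end (x axis, %) in 5 FGF pathway lists (blue) and 4 cell type marker lists (grey); numbers beside the bars are genes open of genes with a strand, and the dashed line is the 40.7% of all protein-coding genes. The adaptor, feedback, target and epithelial lists lie well above the line, the receptor list close to it, and the ligand, mesenchymal, endothelial and immune lists below it.

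The counts depend on how strictly regions are called. Among the regions with the highest IDR score of 1000 only, Fgfr1, Spry2, Dusp6 and Etv5 kept an open 5′ end and Spry1 and Etv4 did not, so that 4 of the 10 genes were open beside 25.5% of all genes. A gene without a region in the list was not open enough to pass the authors' threshold for this list, which does not show that it was closed in every cell.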

How the data were processed

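ATAC-seq libraries of 4 organoid samples were made with the Nextera kit and sequenced paired-end. According to the study's methods, alignment and peak calling were done by the authors in the ENCODE pipeline for ATAC-seq, which gave a consensus list from all samples. The deposited list has fewer distinct regions than the methods give for that consensus and was taken to be it, so a gene without a region here could have one in a longer list. Aligner, versions and filters were not given in the sources used here. The deposited list gives for each of 69545 summits the IDR score, the fold of signal over local background (a ratio) and a −log10 q-value; its p-values were not used. Lines with the same coordinates were merged into 32011 regions, each with its strongest summit. GRCm39 and HOMER are named in the submitters' processing notes, but 40.7% of GRCm38.p6 5′ ends and only 5.18% of GRCm39 5′ ends had a region, against 4.01% of GRCm38.p6 ends moved by 50 kb. GRCm38.p6 was therefore used. Strands came from GENCODE by gene name and chromosome, and 21985 of 22110 genes also in the RefSeq promoter table had the same strand. Percentiles of distal counts compare a gene with others in 50 bins of the length of chromosome nearest to the 5′ end. All 10 genes are named; for each, the region at the 5′ end, the strongest inside and outside the gene and the closest are named, with others chosen after their values were seen. Members and lists were chosen with earlier results of these data known. The assignment was checked on simulated regions. Exon and intron positions were not analysed here. Python 3.11.15, pandas 2.3.3 and numpy 2.4.6 were used. Values of some genes of the adaptor and ERK cascade list are not reported here.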

Additional observations from a re-analysis of the deposited data

How the results depend on the processing

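The 7 results were recomputed under 8 alternatives, and 42 of the 56 values stayed within 1.5 times those reported. This tally is no measure of stability, since some values could not have changed. A stricter list cannot add a region to a gene with 0. Counting every summit line cannot change the number of genes with a region. Letting genes of any type claim regions cannot change counts at a 5′ end or inside a gene. A fall from 6 to 4 genes also counts as within 1.5 times. The number of the 10 genes with an open 5′ end was 5 with a limit of 500 bp, when Spry2 was lost. It was 4 in the 16006 regions with the lowest q-values or the 14422 with an IDR score of 1000, and 6 under the other alternatives. The ligand genes stayed at 0 throughout. Only a limit of 2 kb, the position of the strongest summit or any overlap of the region could have changed this, and the other alternatives could not. Over all protein-coding genes, the share with an open 5′ end fell too. It was 37.7% with the limit of 500 bp, 27.5% with the lowest q-values and 25.5% with an IDR score of 1000. Under the other alternatives it was 40.7% to 43.9%. With the lowest q-values, regions given to the 8 receptor, feedback and ETS factor genes fell from 47 to 25 and those given to the ligand genes from 2 to 0. Regions with a midpoint inside the 10 genes, some of them at 5′ ends, fell from 9 to 5 and distal regions from 43 to 21. With an IDR score of 1000 these counts, in the same order, were 22, 0, 4 and 18, and with every summit line counted 108, 5, 20 and 95. The stricter lists are shorter for all genes. The lowest q-values keep 16006 of 32011 regions by design. An IDR score of 1000 was held by 45.1% of all regions and by 41.0% of those away from 5′ ends. When 5′ ends of genes of any type could claim a region, the 8 genes had 14 regions and the 10 genes 10 distal regions, with 0 for Dusp6, 1 each for Spry2 and Fgfr1 and 2 for Fgfr2, because 5′ ends of genes that are not protein-coding lay closer. Distal counts are thus counts of nearest protein-coding 5′ ends and not of regulatory links. No sample could be left out and no paired analysis was possible because the samples share a single list.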
